A study of Sus scrofa with 4 samples.

Results

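miR-146b, miR-224 and miR-210, which the files list as mir-146b, mir-224 and mir-210, are 3 of the 189 miRNAs that had at least 1 read in primary pig vascular stem cells taken through adipogenic induction. They were chosen by name, because earlier results on these same libraries had shown low levels before induction and higher levels after it. Their values before and after induction are therefore a description, and no test stands behind them. Each was listed as a single pig hairpin in all 4 libraries, with no second copy. All 3 had a read in every library and reached 10 CPM (reads scaled to the miRNA reads of a library) in at least 1 library. Before induction 2 of the 3 reached 10 CPM, and miR-224 did not.

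The study followed the miRNAs of fat cell formation in cells from 2 places, with 1 small RNA library in each of 4 groups and no replicate. IVSC MDI and IVSC were cells from the dorsal longissimus dorsi muscle, with and without the induction cocktail, and SVSC MDI and SVSC were their counterparts from subcutaneous fat. MDI was given to confluent cells and consisted of insulin at 5 mg/l, the synthetic glucocorticoid dexamethasone at 0.25 µM and IBMX, which blocks phosphodiesterases, at 0.5 mM. The last pair were left out after 3 days, growth medium returned at day 6, and culture went on for 3 or 4 days more. All cells were at passage 1 in medium with 20% serum, and muscle cells were seeded at 1500000 and fat cells at 1000000 per well. The cell type label reads adipose-derived for the muscle cells too. The labels do not say whether the cultures shared an animal, nor which harvest day belongs to which MDI library. No harvest day is recorded for IVSC and SVSC, so MDI and time in culture cannot be told apart. Each ratio below therefore compares 2 libraries, and differences between animals, preparations or harvest days are part of it.

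A miRNA is cut from a hairpin precursor, and 1 strand of the resulting duplex, the mature miRNA, guides Argonaute proteins to messenger RNAs that pair with its seed. miR-146b and its close relative miR-146a are induced by NF-κB signalling in human and mouse cells and repress IRAK1 and TRAF6, which act in Toll-like receptor signalling. In mouse preadipocytes miR-146b has been reported to promote differentiation. miR-210 is the classic target of the hypoxia-inducible factor HIF-1α in human cells and represses ISCU, a scaffold for iron-sulphur cluster assembly. miR-224 is encoded in an intron of GABRE, a GABA receptor subunit gene, and has been reported to restrain early differentiation of mouse preadipocytes. In the pig gene table of assembly Sscrofa11.1 MIR224 also lies inside GABRE, with MIR452 as its neighbour in the same host gene, whereas no gene encloses MIR146B or MIR210. Coordinates are not given because the files were built on another annotation.

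The libraries held 14810112 (IVSC MDI), 13252168 (IVSC), 2573249 (SVSC MDI) and 17937121 (SVSC) miRNA reads, so that 1 read was worth between 0.0558 and 0.389 CPM. The SVSC MDI library was the shallowest, and pig hairpins held 55.01% of its listed reads, against 70.2% to 77.0% in the others. The labelled mesenchymal origin was checked on miR-143, miR-145, miR-199a, miR-199b and miR-214, which were all detected. Together they held 401780, 359421, 409082 and 262057 CPM in IVSC MDI, IVSC, SVSC MDI and SVSC. Most of each sum was miR-143, with 387914, 349986, 390300 and 255706 CPM in that order. The 5 did not move together: with MDI in IVSC miR-145 had a ratio of 5.30 and miR-214 one of 0.473. Of 7 blood cell miRNAs 4 were detected, with sums of 412, 472, 358 and 426 CPM in the same order, and miR-223, miR-150 and miR-144 were not among them. miR-155 made up most of each sum, and miR-142 had 25.9 CPM in IVSC MDI, 28.4 CPM in IVSC, 19.4 CPM in SVSC MDI and 5.41 CPM in SVSC, a ratio of 3.59 with MDI in fat cells. The epithelial list of 8 was represented by miR-205 alone, at no more than 9 reads in any library. Skeletal muscle miRNAs summed to 1137 CPM in IVSC MDI and 6275 CPM in IVSC, and to 888 CPM in SVSC MDI and 1853 CPM in SVSC. These sums were carried by few members: miR-206 held 4874 of the 6275 CPM in IVSC, and miR-1 held 1818 of the 1853 CPM in SVSC. The other muscle miRNAs did not all follow the sum, and in fat cells miR-133a (ratio 9.18) and miR-133b (ratio 12.2) were higher with MDI while miR-1 (0.363) was lower. The part of these cell type markers in the results below was not tested. In bulk RNA, fewer cells of a type and less RNA per cell cannot be told apart.

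miR-146b was the most abundant of the 3 in muscle cells. Its hairpin had 10274 reads in IVSC MDI and 1174 reads in IVSC, which is 694 CPM (exact binomial 95% interval 680 to 707) in IVSC MDI against 88.6 CPM (83.6 to 93.8) in IVSC. In fat cells it had 277 reads in SVSC MDI and 597 reads in SVSC, which is 108 CPM (95.3 to 121) in SVSC MDI against 33.3 CPM (30.7 to 36.1) in SVSC. The IVSC MDI library thus stood far above the other 3, while SVSC MDI and IVSC lay close together. By abundance miR-146b was number 48 of 186 miRNAs in IVSC MDI and 98 of 187 in IVSC, and number 99 of 181 in SVSC MDI and 116 of 182 in SVSC. Intervals here and below hold counting error alone, because amplified reads that carry no molecular identifier need not stand for separate molecules.

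miR-210 was low in every library and was higher with MDI in both cell types. It had 1093 reads or 73.8 CPM (69.5 to 78.3) in IVSC MDI, against 202 reads or 15.2 CPM (13.2 to 17.5) in IVSC. In fat cells it had 322 reads or 125 CPM (112 to 140) in SVSC MDI, against 660 reads or 36.8 CPM (34.0 to 39.7) in SVSC. The order of the libraries differed from that of miR-146b: the highest miR-210 level was in SVSC MDI and the lowest in IVSC. None of the 4 intervals overlapped another, but how many of all miRNAs shared this was not counted. Its place by abundance was 102 in IVSC MDI and 140 in IVSC, and 93 in SVSC MDI and 113 in SVSC.

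miR-224 was close to undetected before induction. Its hairpin had 340 reads or 23.0 CPM (20.6 to 25.5) in IVSC MDI, against 12 reads or 0.906 CPM (0.468 to 1.58) in IVSC. In fat cells it had 21 reads or 8.16 CPM (5.05 to 12.5) in SVSC MDI, against a single read or 0.0558 CPM (0.00141 to 0.311) in SVSC. Both MDI libraries lay above both undifferentiated ones, with intervals that did not overlap, which was likewise not counted over all miRNAs. A count of 3 reads, the most that a count of 0 allows, would be 0.167 CPM in SVSC, and the level there lies below that limit.

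**Figure D1:**
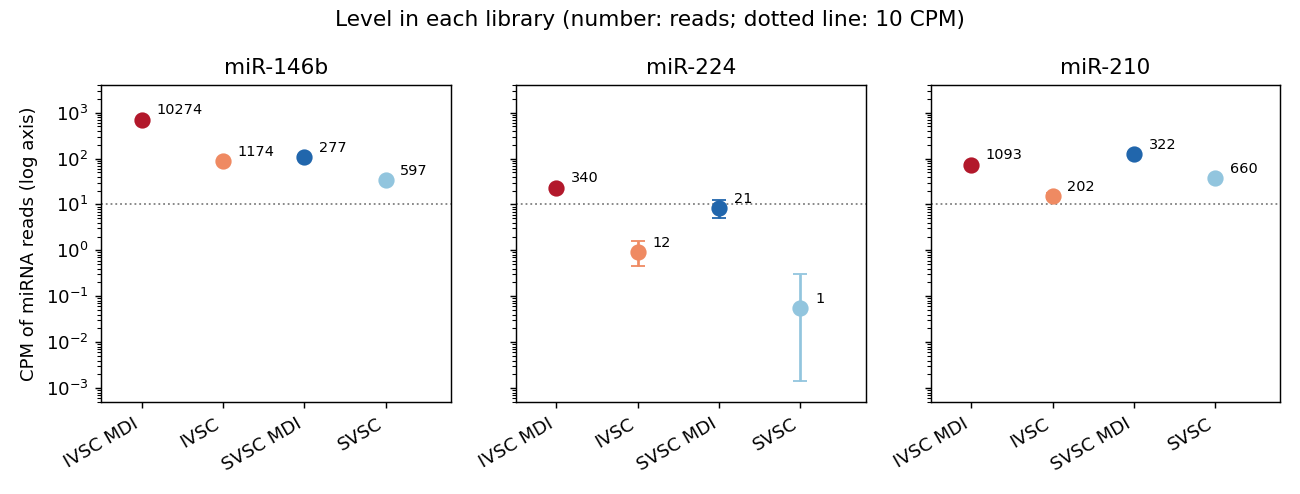
Level of each of the 3 miRNAs in CPM of miRNA reads (log axis) in IVSC MDI, IVSC, SVSC MDI and SVSC; points are single libraries, bars are exact binomial 95% intervals and the numbers are reads. Each miRNA is higher in the MDI library than in its undifferentiated counterpart, from 694 against 88.6 CPM for miR-146b in muscle cells to 8.16 against 0.0558 CPM for miR-224 in fat cells.

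The first comparison asked how far each of the 3 moved with MDI in muscle-derived cells. The ratio of IVSC MDI to IVSC was 25.4 for miR-224 (exact conditional 95% interval 14.3 to 49.6), 7.83 for miR-146b (7.37 to 8.33) and 4.84 for miR-210 (4.16 to 5.65). Among the 152 miRNAs at 10 CPM or more in either library, 16.4% were at least 2-fold higher with an interval that excluded 1, 23.7% were at least 2-fold lower, and the median log2 ratio was -0.04. Under scaling to all listed reads the split turned round, with 22.2% higher and 14.6% lower of 144 and a median of 0.22. All 3 were among the higher ones, with miR-224 at place 1, miR-146b at place 2 and miR-210 at place 4 from the top. Because the 3 were picked for this contrast, their places say nothing beyond it.

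The second comparison asked the same of fat-derived cells, where on all hairpin reads the ratio was smaller for miR-146b and miR-210; counted on mature reads alone, miR-146b had a ratio of 13.8 there, against 11.2 for muscle cells. The ratio of SVSC MDI to SVSC was 3.23 for miR-146b (2.79 to 3.74) and 3.40 for miR-210 (2.97 to 3.89). Of 146 miRNAs compared in SVSC, 34.2% were at least 2-fold higher, 21.9% were at least 2-fold lower, and the median log2 ratio was 0.41. That balance turned round under each of 4 other scalings (TMM, DESeq2 size factors, all listed reads and miRNA reads without miR-21), with 24.1% to 26.7% higher, 28.0% to 32.1% lower and medians from -0.12 to 0.02. miR-210 stood at place 29 and miR-146b at place 30, so both lay well inside the group of higher miRNAs. Under those scalings the SVSC ratios of the members were lower too, between 2.28 and 2.45 for miR-146b and between 2.40 and 2.58 for miR-210, and both stayed past 2-fold. miR-224 was below 10 CPM in both SVSC libraries and was not compared there. Its ratio of 146 rests on 21 reads against 1 and has an interval of 23.5 to 6054.

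**Figure D2:**
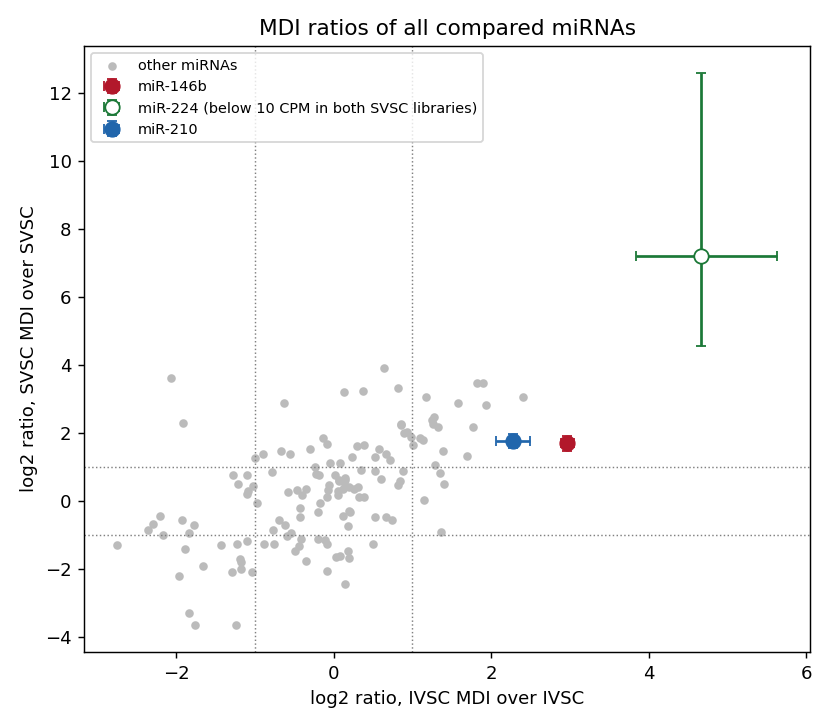
log2 ratio of SVSC MDI to SVSC (vertical) against that of IVSC MDI to IVSC (horizontal) for the 143 miRNAs compared in both cultures, with dotted lines at 2-fold; bars are 95% counting intervals and the open point marks miR-224, which was below 10 CPM in both SVSC libraries. miR-146b and miR-210 sit near the right edge of the cloud, at log2 2.97 and 2.28 in IVSC, and above its centre in SVSC, at 1.69 and 1.77.

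On all hairpin reads, the interval of the difference in MDI change between cell types excluded 0 for miR-146b and miR-210. How many of all miRNAs did so was not computed, and the median log2 MDI ratio itself was -0.04 in IVSC and 0.41 in SVSC. For miR-146b the choice of reads changed this difference. For miR-210 mature and exactly matching reads gave a similar value under the same scaling. Its interval held 0 once mature reads were scaled to mature reads. For miR-146b the log2 MDI ratio was 1.69 in SVSC cells and 2.97 in IVSC cells, a difference of -1.28 (SVSC minus IVSC; normal 95% interval from the read counts -1.50 to -1.05). That of miR-210 was 1.77 in SVSC and 2.28 in IVSC, a difference of -0.51 (-0.80 to -0.22). On mature reads scaled to hairpin reads the difference was 0.30 (-0.23 to 0.83) for miR-146b and -0.50 (-0.80 to -0.20) for miR-210. On mature reads scaled to mature reads it was 0.54 (0.01 to 1.07) for miR-146b and -0.26 (-0.56 to 0.04) for miR-210, and on exactly matching reads 1.83 (0.59 to 3.07) for miR-146b and -0.56 (-0.90 to -0.23) for miR-210. For miR-224 the difference was 2.53 with an interval of -0.48 to 5.54, and no direction can be given. For the relative miR-146a it was 0.05 (-0.16 to 0.25) in CPM of miRNA reads, and it was not computed under the other scalings. With 1 library in each group, spread between preparations is unknown and these differences were not tested.

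A much smaller share of the hairpin reads was counted as mature for miR-146b than for miR-210 and miR-224. The files divide the reads of a hairpin into mature reads, star reads (from the opposite strand of the duplex) and reads called other. The last are called the rest of the hairpin here. The files do not say how these kinds were defined or where in the hairpin the other reads lay. For miR-210 the mature share was 92.9% (91.2 to 94.3) in IVSC MDI and 92.1% (87.5 to 95.4) in IVSC, and 95.96% (93.2 to 97.8) in SVSC MDI and 94.2% (92.2 to 95.9) in SVSC. For miR-224 it was 97.4% of 340 reads in IVSC MDI and 100% of 12 reads in IVSC. miR-146b had only 38.3% (37.4 to 39.3) of its reads counted as mature in IVSC MDI and 26.8% (24.3 to 29.5) in IVSC. In fat cells the share was 33.6% (28.0 to 39.5) in SVSC MDI and 7.87% (5.84 to 10.3) in SVSC. None of the 3 had a star read in any library. The files do not say whether a star sequence was defined for them, so this is not a measured absence.

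A mature share below 50% was not rare. Among miRNAs with at least 100 reads it was found for 46 of 153 in IVSC MDI, 44 of 152 in IVSC, 30 of 114 in SVSC MDI and 37 of 140 in SVSC, and the median share ran from 89.1% to 92.7%. These counts include 7, 8, 5 and 4 miRNAs in the same order, miR-146a among them, with no mature read at all, for which the files do not say whether a mature sequence was defined. The low shares of the remaining 39, 36, 25 and 33 rest on some mature reads, as for miR-146b. The share of miR-146b also moved with MDI, a change that does not depend on how the libraries are scaled. Its mature share was higher by 11.5 percentage points in IVSC MDI than in IVSC and by 25.7 points in SVSC MDI than in SVSC. Over all miRNAs with 100 reads in both libraries the median change was 0.17 points in IVSC (147 miRNAs) and 0 points in SVSC (114 miRNAs). A larger gain than that of miR-146b was seen for 15 miRNAs in IVSC and for 2 in SVSC. The share of miR-210 changed by 0.78 points in IVSC and by 1.72 points in SVSC.

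**Figure D3:**
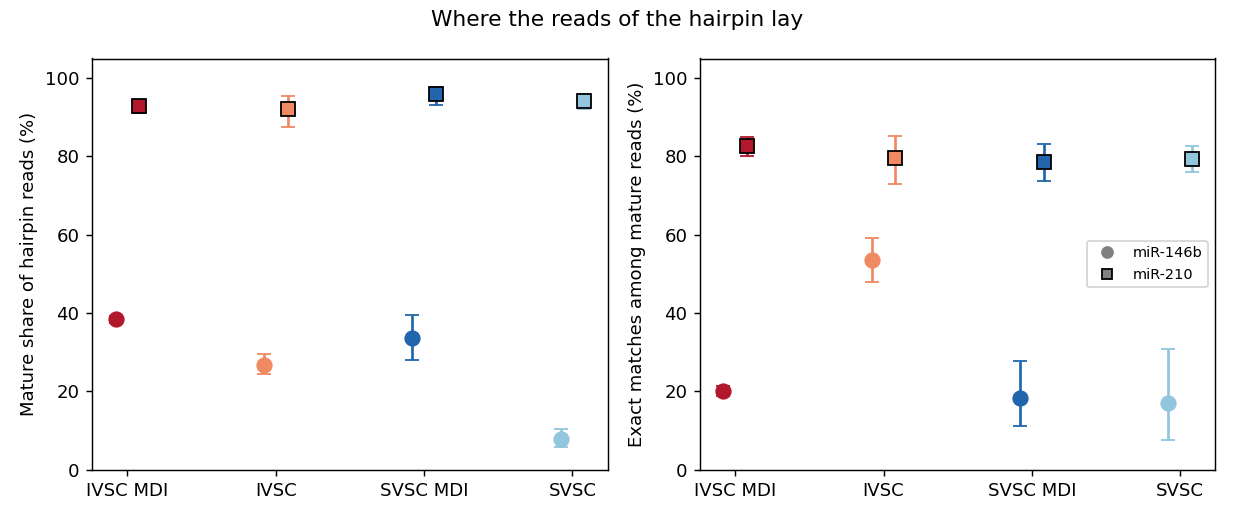
Left, share of hairpin reads counted as mature (%). Right, share of mature reads that match the mature sequence exactly (%). Both are shown for miR-146b (circles) and miR-210 (squares with a black edge) in each library, with exact binomial 95% intervals. miR-210 stays above 92% and near 80% in all libraries, while miR-146b ranges from 7.87% to 38.3% on the left and has 1 library, IVSC, at 53.7% on the right.

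Counted on mature reads alone, the MDI ratios of miR-146b in the 2 cell types had intervals that overlapped. It had 3940 mature reads or 266 CPM in IVSC MDI, against 315 mature reads or 23.8 CPM in IVSC, a ratio of 11.2 (9.98 to 12.6). In fat cells it had 93 mature reads or 36.1 CPM in SVSC MDI, against 47 mature reads or 2.62 CPM in SVSC, a ratio of 13.8 (9.61 to 20.0). On the rest of the hairpin the ratios were 2.33 (1.96 to 2.76) in SVSC and 6.60 (6.14 to 7.09) in IVSC. The smaller MDI change of miR-146b in SVSC therefore held for all hairpin reads and for the rest of the hairpin, and not for mature reads. For miR-210 the mature ratios were 3.46 (3.01 to 3.98) in SVSC and 4.88 (4.17 to 5.74) in IVSC. Scaled to mature reads they were 4.29 (3.73 to 4.92) in SVSC and 5.12 (4.37 to 6.02) in IVSC, and on the rest of the hairpin 2.38 (1.17 to 4.58) in SVSC and 4.36 (2.53 to 8.01) in IVSC, and in both cases the interval of the difference between cell types held 0.

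**Figure D4:**
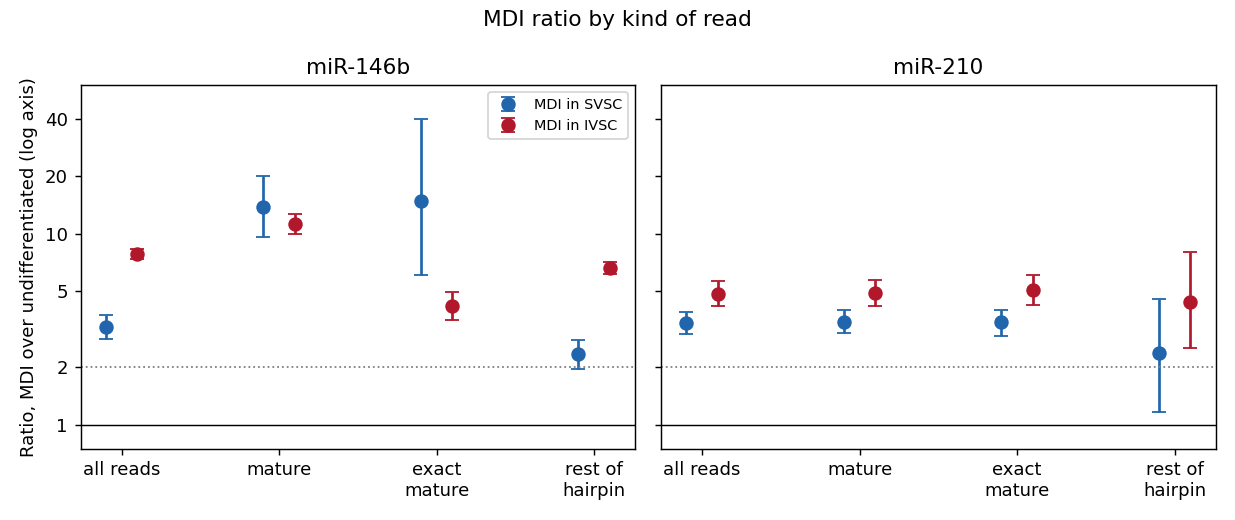
Ratio of MDI to undifferentiated (log axis) for miR-146b and miR-210, computed on all hairpin reads, mature reads, exactly matching mature reads and reads on the rest of the hairpin, in SVSC (blue) and IVSC (red), with 95% counting intervals; the dotted line marks 2-fold. For miR-210 the 4 kinds of reads give ratios of 2.38 to 3.46 in SVSC and 4.36 to 5.07 in IVSC. For miR-146b the order of the cultures turns round between all reads (3.23 in SVSC, 7.83 in IVSC) and exactly matching reads (14.8 in SVSC, 4.17 in IVSC). The ratio of 14.8 rests on 17 reads in SVSC MDI against 8 in SVSC (interval 6.06 to 39.7).

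The mature reads of miR-146b also differed in how they matched. Exact matches made up 20.0% of them in IVSC MDI (18.7 to 21.3) and 53.7% in IVSC (48.0 to 59.3), and 18.3% in SVSC MDI (11.0 to 27.6) and 17.0% in SVSC (7.65 to 30.8). IVSC was the library that stood apart, and the other 3 overlapped. The drop of 33.7 percentage points in IVSC was the largest among 119 miRNAs with 100 mature reads in both libraries, ahead of one of 29.3 points, and the median change was -0.82 points. The files do not say which differences a mature read may have and still be counted. Mature reads that did not match exactly numbered 3153 in IVSC MDI and 146 in IVSC, a ratio of 19.3 (16.4 to 23.0), while the ratio for exact matches was 4.17 (3.52 to 4.95). For miR-210 the exact share lay between 78.6% and 82.7% in all 4 libraries. For miR-224 exact matches were few, 35 of 331 mature reads in IVSC MDI and 1 of 12 in IVSC.

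miR-146a shares its seed with miR-146b, and how far reads passed between the pair cannot be settled from the files. All mature reads of miR-146b were listed as matching that hairpin uniquely. miR-146a had no mature read in any library. All its reads, 1712 in IVSC MDI, 1009 in IVSC, 341 in SVSC MDI and 1516 in SVSC, were counted as other. Whether a mature sequence was defined for miR-146a is not stated, so its lack of mature reads is not a measured absence. The files give no count of uniquely matching reads for the rest of a hairpin, so sharing there cannot be told apart. The miR-146a ratio was 1.52 (1.40 to 1.64) in IVSC and 1.57 (1.39 to 1.76) in SVSC, short of 2-fold in both. No read was listed for the neighbour of miR-224 in GABRE, miR-452, and whether its hairpin was searched is not known here.

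Fat-derived and muscle-derived cells were then set side by side. miR-146b was lower in fat cells before MDI, with 33.3 CPM in SVSC and 88.6 CPM in IVSC, a ratio of 0.376 (0.340 to 0.415). After MDI it was lower still on all hairpin reads, with 108 CPM in SVSC MDI and 694 CPM in IVSC MDI, a ratio of 0.155 (0.137 to 0.175). At least 2-fold lower levels in fat cells were seen for 20.9% of 148 miRNAs before MDI and for 10.2% of 147 after it, and only 3 of those 147 had a lower ratio than miR-146b. These shares ran from 16.0% to 20.9% before MDI and from 10.2% to 20.9% after it over the 5 scalings, so that no fall with MDI can be read from them. On mature reads the gap before MDI was wider, at 0.110 (0.0793 to 0.150), and after MDI the ratio was 0.136 (0.109 to 0.167). These 2 intervals overlapped, so a wider gap after MDI was not seen on mature reads.

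miR-210 went the other way. It was higher in fat cells before MDI, with 36.8 CPM in SVSC and 15.2 CPM in IVSC, a ratio of 2.41 (2.06 to 2.84), where 7.43% of miRNAs were at least 2-fold higher. That share was between 9.79% and 18.7% under the other 4 scalings, and the miR-210 ratio was between 2.74 and 3.11. After MDI the ratio of SVSC MDI to IVSC MDI was 1.70 (1.49 to 1.92), short of 2-fold, while 17.7% of miRNAs passed it, and it was 1.18 under scaling to all listed reads, where 5.04% passed 2-fold. miR-224 was lower in fat cells after MDI, at 8.16 CPM in SVSC MDI and 23.0 CPM in IVSC MDI, a ratio of 0.355 (0.217 to 0.552), and before MDI it had 1 read in SVSC and 12 reads in IVSC, below the level compared. The direction between cell types was thus not shared by the 3 miRNAs. Their shared direction with MDI follows from how they were chosen and is no result. miR-224 reached 10 CPM in IVSC MDI alone, so it entered the comparisons only through the library where it was highest.

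Of the other miRNAs linked to the same pathways, most stayed short of 2-fold with MDI in IVSC, as did most of all miRNAs compared. Of 12 miRNAs reported to respond to hypoxia, all were detected, and 1 of them is miR-210, which was picked for its rise. In IVSC 1 of the other 11, miR-23b (ratio 2.62), was at least 2-fold higher and 0 were lower, with a median log2 ratio of 0.18. Over all miRNAs compared in IVSC 16.4% were higher and 23.7% lower, with a median of -0.04. With 11 miRNAs, nothing particular to the list can be read from the IVSC counts. Under scaling to all listed reads miR-27b and miR-181b were called as well. In SVSC 3 of the 11, miR-23a (2.44), miR-23b (2.79) and miR-199a (2.16), were higher and 2, miR-103 (0.323) and miR-107 (0.414), which lie in introns of the pantothenate kinase genes, were lower, with a median of 0.47. These counts, 27.3% and 18.2% of the 11, lie near the 34.2% higher and 21.9% lower among all miRNAs, whose median was 0.41, and are no result about the list. The calls of miR-23a and miR-199a were lost under the other 4 scalings and that of miR-23b under TMM and all listed reads, and miR-21 was then past 2-fold lower. miR-210 was called in both cultures under all 5 scalings.

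Of 8 miRNAs linked to NF-κB, 6 were detected. No read was listed for miR-132 and miR-223, and whether their hairpins were searched is not known here. miR-146b is 1 of the 6 and was picked for its rise. Of the other 5, miR-9 (ratio 2.19) was at least 2-fold higher in IVSC and 0 were lower, with a median log2 ratio of 0.60, where 16.4% of all miRNAs were higher and 23.7% lower with a median of -0.04. In SVSC 2 of the 5, miR-9 (3.49) and miR-125b (2.33), were higher and 0 were lower, with a median of 0.65, where 34.2% of all were higher and 21.9% lower with a median of 0.41. With 5 miRNAs, nothing particular to the list can be read from these counts, and miR-125b was not called under the other 4 scalings, where miR-21 was past 2-fold lower. miR-155, a miRNA of activated lymphocytes and macrophages and a further NF-κB target, had ratios of 0.872 (0.841 to 0.905) in IVSC and 0.800 (0.744 to 0.858) in SVSC. miR-9 had 27.8 CPM in IVSC MDI and 12.7 CPM in IVSC, and 77.3 CPM in SVSC MDI and 22.2 CPM in SVSC, while the neuronal miR-124 had 1 read in SVSC MDI and none in the other libraries.

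The miRNAs whose levels ran most like those of the 3 were found by the distance between log2 CPM profiles, each centred on its own mean over the 4 libraries, among 154 candidates. Nearest to miR-210 were miR-34a, a p53-responsive miRNA (distance 0.65 log2 units), miR-9 (0.82) and miR-23b (0.92), against a median distance of 2.50. miR-34a had 512 CPM in IVSC MDI and 149 CPM in IVSC, and 865 CPM in SVSC MDI and 192 CPM in SVSC. Nearest to miR-146b were miR-376a (1.60), miR-30a (1.61) and miR-708 (1.72), with a median of 3.19. The profile of miR-376a rests on few reads, 173 in IVSC MDI and 55 in IVSC, and 6 in SVSC MDI and 6 in SVSC, and it passed 10 CPM in IVSC MDI alone, with 11.7 CPM. miR-30a had 7071 CPM in IVSC MDI and 2973 CPM in IVSC, and 4852 CPM in SVSC MDI and 934 CPM in SVSC. miR-708 had 392 CPM in IVSC MDI and 219 CPM in IVSC, and 108 CPM in SVSC MDI and 71.6 CPM in SVSC. For miR-224 no profile came closer than miR-376a (3.84), miR-4334 (3.86) and miR-146b (4.13), with a median of 6.47. miR-4334 too had few reads, with 51 in IVSC MDI and 17 in IVSC, and 62 in SVSC MDI and 5 in SVSC. These distances describe 4 libraries and carry no test. By Pearson correlation of the same profiles 2 of the 3 named for miR-146b were found again, and 0 of 3 for miR-224 and for miR-210.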

How the data were processed

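Small RNA of 16 to 35 nt was sequenced from 4 libraries for 36 cycles after 12 cycles of PCR. The deposited values are read counts per feature: per the file headers, each hairpin has counts of exact mature, mature, star, other and total reads. No source used here names the aligner, the trimming tool or the mismatches allowed, and mm9 appears in the submitters' processing notes with no stated purpose. Some tRNA values of Rfam in the SVSC table are damaged or empty and were not used.

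Copies of a hairpin were counted once (largest copy plus uniquely matching reads of the others). CPM was computed over miRNA reads. Ratios carry exact 95% intervals (Clopper-Pearson, conditional on both counts), and a difference of MDI effects a normal interval. A miRNA was compared at 10 CPM in either library and called at 2-fold with an interval excluding 1. No test was run, with 1 library per group. TMM (edgeR 4.0.16) and DESeq2 1.42.0 served only for scaling, in R 4.3.3; the rest used Python 3.11.15, SciPy 1.17.1, pandas 2.3.3 and NumPy 2.4.6. On simulated counts (189 miRNAs, 20 draws), the intervals held the true ratio in 95.2% to 95.7% of cases over the 4 comparisons. This checks the calculation of the intervals alone. It says nothing about amplified duplicates or spread between preparations in these libraries.

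The members and lists were chosen with earlier results of these data known. Named miRNAs are the members, the lists for hypoxia, NF-κB, relatives and markers, and the 3 nearest profiles of each member. The liver list, miR-122, had 3.11 CPM in IVSC MDI and 10.5 CPM in IVSC, and 1.94 CPM in SVSC MDI and 24.1 CPM in SVSC; the endothelial miR-126 had 89.6 and 134 CPM, and 63.7 and 52.6 CPM, in that order.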

Additional observations from a re-analysis of the deposited data

Results flagged for a closer look

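The Rfam part of the files, which the comparisons above leave out, also held reads on entries of the same miRNA families. Entries of the mir-146 family had 202 reads in IVSC MDI and 40 in IVSC, and 19 in SVSC MDI and 90 in SVSC, each above the 3 reads that a count of 0 allows. The largest single entry had 100, 31, 14 and 83 reads in the same order. Entries of the mir-210 family had 6 reads in SVSC, above that limit, and 3, 0 and 1 in IVSC MDI, IVSC and SVSC MDI. The mir-224 family had no Rfam entry with a read. Whether these reads came from the pig miRNAs was not tested.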

How the results depend on the processing

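The MDI ratios of the 3 miRNAs kept their direction and stayed past 2-fold under every scaling and kind of read tried, as did the ratios of miR-146b between cell types. The MDI difference between cell types for miR-146b (log2 -1.28) was 0.30 on mature reads scaled to hairpin reads, with an interval that held 0. It reversed to 0.54 (0.01 to 1.07) on mature reads scaled to mature reads and to 1.83 on exactly matching reads. The last rests on 17 such reads in SVSC MDI and 8 in SVSC. Under TMM, DESeq2 size factors, all listed reads and miRNA reads without miR-21 the difference was -1.98 to -1.68. The cause of these changes was not tested. That of miR-210 (-0.51) was -0.26 on mature reads scaled to mature reads and -0.87 on reads of the rest of the hairpin, an alternative added after seeing the data, with intervals that held 0. On the rest of the hairpin the log2 ratio of SVSC to IVSC for miR-210 was 0.81, and that of SVSC MDI to IVSC MDI for miR-224 was -0.65 (-1.02 on exactly matching reads), none of them called, on 1 to 38 reads. Counts of called miRNAs at 3-fold were 25 (MDI in IVSC), 50 (MDI in SVSC), 24 (SVSC to IVSC) and 16 (SVSC MDI to IVSC MDI), against 61, 82, 42 and 41 at 2-fold, and at 1.5-fold the last pair gave 91 and 71. TMM, DESeq2 size factors, all listed reads and miRNA reads without miR-21 moved every log2 ratio of MDI in SVSC by -0.40 to -0.50. Shares of all miRNAs called under scaling without miR-21 were added after seeing the data. Ratios with exactly matching or other reads could not be given where a library had none. No paired analysis was possible because each group had 1 library. Depth limits miR-224 most, with 1 read in SVSC and 21 in SVSC MDI.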
